A study of Mus musculus with 10 samples.

Results

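Liver cells take up and pump out organic ions, drugs, bile constituents and lipids through ATP-binding cassette (ABC) pumps, the organic anion transporting polypeptides encoded by Slco genes, and the organic ion carriers encoded by Slc22a genes. The data cover 83 such genes of the 19935 genes with a probe set of their own on the array. They were taken by symbol, as every Abca to Abcg gene and every Slco and Slc22a gene, leaving out the bile salt pump Abcb11 and the sterol pumps Abcg5 and Abcg8. Of the 83, 45 are ABC genes, 15 are Slco genes and 23 are Slc22a genes. They were read by 84 probe sets, Abcb5 having more than 1, of which the brighter one over the 10 arrays was used. Slc22a28 was read only by probes that several genes share and was not analysed here.

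The study measured total RNA from livers of 12-week-old mice on single-channel oligonucleotide arrays, 5 wild-type livers (WT) and 5 livers lacking nucleomethylin (NML-KO). Nucleomethylin, a nucleolar protein that binds methylated histone and methylates ribosomal RNA, is the product of Rrp8. The labels give no treatment and do not state strain, sex, time of dissection, feeding, or whether the deletion covers the whole body. All values are log2 of the deposited intensities, and a level of 1 probe set cannot be set against that of another.

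Uptake from the blood runs through Slco and Slc22a carriers in the sinusoidal membrane of hepatocytes. ABC pumps in the canalicular membrane then export conjugates, drugs and phospholipid into bile, while ABC pumps of the sinusoidal membrane return conjugates to the blood. Other ABC proteins move lipids between membranes, carry fatty acids into peroxisomes, or act on ribosomes without transporting anything. Many pump and carrier genes are under the control of nuclear receptors, and several differ between hours of the day or between the sexes in rodent liver.

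The livers were compared by genotype and by a split that the data themselves show. Dbp, a clock output transcription factor with a strong daily rhythm in liver, lay between 9.68 and 10.23 in WT 1, WT 2 and NML-KO 1 to 3, and between 6.20 and 6.60 in WT 3 to 5 and NML-KO 4 and 5. The first 5 livers are called Dbp-high and the others Dbp-low. The sets are not a label of the study, and their p-values, like those of genotype, measure only the spread between these livers. Hepatocyte and Y chromosome markers were present in all livers: the mean of 6 hepatocyte markers was 13.88 to 14.05, Eif2s3y was 8.08 to 8.54 and Xist 4.60 to 4.99 across the 10 livers. Of the 6 hepatocyte markers, 1 had a limma adjusted p below 0.05 between the Dbp sets, against 12.9% of all genes. The sets did not overlap for 3 of the 6, against 12.2% of all genes. Between genotypes 1 of the 6 had an unadjusted limma p below 0.05, against 2.7% of all genes, and none passed after adjustment. WT 2 and NML-KO 4 lay 1.5-fold or more from the other livers of their genotype for 10 and 9 transporter genes, more than any other liver, and results that rest on them are given with and without them. Rrp8 itself was 7.90, 7.66, 7.83, 7.70 and 7.65 in WT 1 to 5 and 6.99, 6.78, 6.65, 7.19 and 6.75 in NML-KO 1 to 5. The groups did not overlap (difference -0.88, SE 0.10, exact permutation p = 0.0079, two-sided, the smallest that 5 against 5 livers can give). limma's adjusted p for Rrp8 over all genes was 0.109, and the labels do not say whether the probe set lies in the deleted stretch.

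No transporter gene passed the test between NML-KO and WT livers. None of the 83 passed an adjusted p below 0.05 in limma's moderated test with Benjamini-Hochberg adjustment, as none of all genes did (0%), and none had an unadjusted p below 0.05, against 2.7% of all genes (1.66% lower and 1.05% higher in NML-KO). The 83 differences, NML-KO minus WT, ran from -0.30 to 0.27 with a median of 0.01, against a median of -0.01 over all genes, and 43 lay above 0 and 40 below, where 53.4% of all genes lay below. The genotypes overlapped for every transporter gene, while 0.406% of all genes did not overlap.

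Intervals show what these 10 livers could have seen. For Abcc2, the pump that exports bilirubin glucuronide and other conjugates into bile, the difference was -0.02 with a 95% interval from -0.48 to 0.45. The interval for Slco1a1, a sinusoidal carrier of steroid conjugates and bile salts, ran from -0.50 to 0.93 around 0.22. It was wider for Slc22a7, the sinusoidal organic anion carrier OAT2, from -1.31 to 0.79 around -0.26, and widest for the peroxisomal fatty acid transporter Abcd2, from -1.52 to 0.92 around -0.30.

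The transporter gene closest to the threshold was Abce1, which encodes the ATPase that splits ribosomes for recycling and is no transporter. It was 9.73, 9.64, 9.99, 10.06 and 9.91 in WT 1 to 5 and 10.52, 9.92, 10.04, 9.99 and 10.20 in NML-KO 1 to 5. NML-KO 1 was the highest and WT 1 and WT 2 the lowest, and the groups overlapped (difference 0.27, SE 0.12, limma adjusted p = 0.999). The 4 genes of the ABCE and ABCF group, whose products act on translation, had differences from 0.03 to 0.27. By unadjusted p the next was Abcc6, a pump of the sinusoidal membrane whose loss causes soft-tissue calcification, at -0.15 (SE 0.07, limma adjusted p = 0.999). The next genes above 0 by unadjusted p were Abcf2 at 0.13 (SE 0.07), the retinal transporter Abca4 at 0.10 (SE 0.07) and the channel regulator Abcc8 at 0.10 (SE 0.08). Below 0 they were Abcd4, which moves cobalamin out of lysosomes, at -0.09 (SE 0.05), Abcc10 at -0.10 (SE 0.07) and Abcc3 at -0.18 (SE 0.13). Without NML-KO 4 the Abcc3 difference was -0.08, and it was -0.02 within the Dbp-high and -0.45 within the Dbp-low livers. None of these passed.

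**Figure D1:**
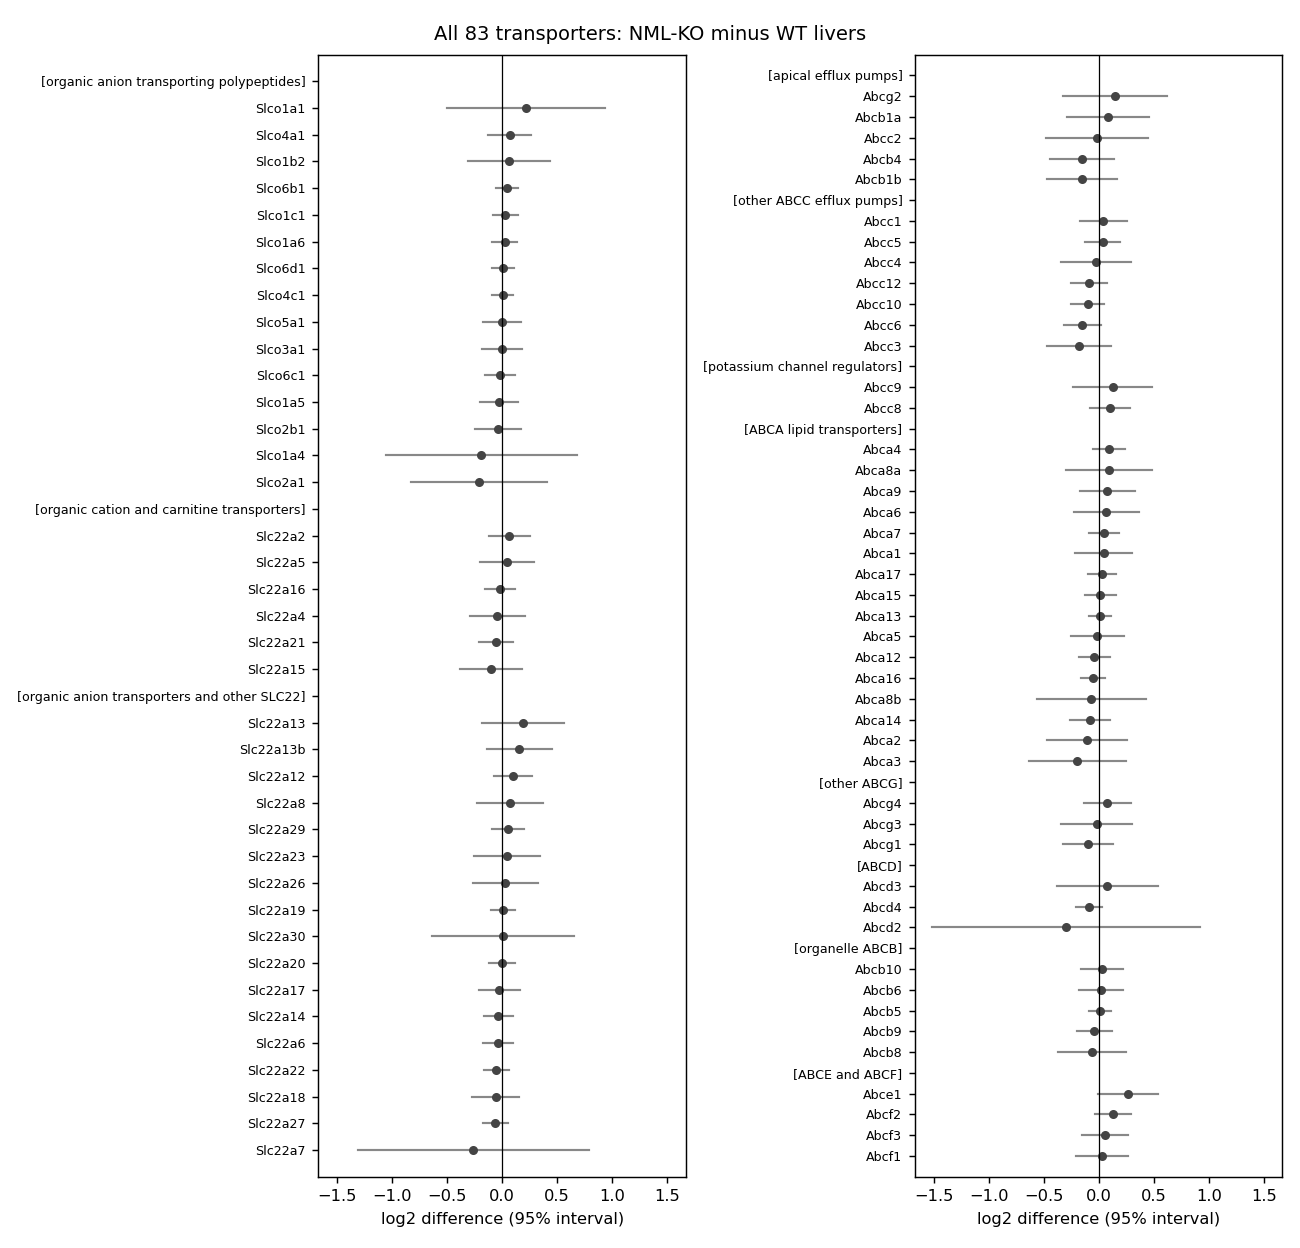
All 83 transporter genes, grouped by role, with the log2 difference NML-KO minus WT on the horizontal axis (5 livers a genotype). Points are differences and bars 95% intervals from the limma fit. Every interval includes 0, and the widest are those of Abcd2, Slc22a7, Slco1a4 and Slco1a1.

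With the Dbp set as a term beside genotype, 4 of the 83 had an unadjusted p below 0.05, against 4.36% of all genes. They were Abcc2 at -0.15, the sinusoidal conjugate pump Abcc3 at -0.24, the dim Abca14 at -0.12 and Abce1 at 0.29. limma's adjusted p was 0.992 for each, so none passed the threshold.

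The Dbp-high and Dbp-low livers differed more. With genotype as a term, 6 of the 83 (7.23%) passed an adjusted p below 0.05, 4 higher and 2 lower in the Dbp-high livers, against 12.9% of all genes (4.92% higher and 7.99% lower). Among genes at or above the median level of the array, 5 of 46 transporter genes passed, against 23.3% of genes, and among the dimmer ones 1 of 37, against 2.56%. The transporter genes as a whole were therefore not called more often than other genes. Their differences were above 0 in 62 of 83 (74.7%), against 57.5% of all genes, with a median of 0.07 against 0.02. Of the 46 brighter ones, 32 (69.6%) lay above 0, against 44.1% of all genes at that level. At an unadjusted limma p below 0.05 there were 18 of the 83, against 26.9% of all genes, and 1, Slco1a4, both passed and differed by at least 1 on the log2 scale, against 0.983%. The sets did not overlap for 6 of the 83, against 12.2% of all genes.

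Cell type markers and an inflammatory list were compared between the sets, and their part in these results was not tested. Of 6 Kupffer cell markers, 5 were lower in the Dbp-high livers and 1 passed the threshold (16.7%, against 12.9% of all genes). The list means overlapped, at 7.47 to 8.33 in Dbp-high and 8.03 to 8.76 in Dbp-low livers. Means of 4 acute phase genes, chosen after their values were seen (Saa1, Saa2, Lcn2 and Orm2), were 5.97 to 6.75 in the Dbp-high and 7.25 to 12.31 in the Dbp-low livers. Of the 4, 3 passed the threshold as lower, a count from which nothing is read, given that choice. Of 5 cholangiocyte markers 1 (20.0%) passed as lower, at -1.13, while the other 4 lay above 0 and the list median was 0.07. Of the 6 hepatocyte markers 1 (16.7%) passed as higher, with 3 above 0 and 3 below. Both shares stand against 12.9% of all genes. None of the 6 sinusoidal endothelial or 6 stellate cell markers passed, with list means of 8.39 to 8.78 against 8.50 to 8.71 and of 7.95 to 8.48 against 8.32 to 8.55. In whole liver, fewer cells of a type and less RNA per cell cannot be told apart.

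Abcc2 was the clearest case, and together with the prostaglandin carrier Slco2a1 it had adjusted p-values below 0.01. For 4 of the 6 that passed, those that carry drugs, conjugates or prostaglandins, the sequence is shown as the 250 bases before each transcription start, on the gene's own strand, so that they can be read against the motifs searched. They come from RefSeq, build GRCm38.p6: Abcc2 at chr19:43782058-43782307 (+ strand), Slco1a4 at chr6:141856221-141856470 (- strand), Abcb1a at chr5:8566841-8567090 (+ strand) and Slco2a1 at chr9:103008237-103008486 (+ strand). Capitals mark the core of an antioxidant response element.
Abcc2: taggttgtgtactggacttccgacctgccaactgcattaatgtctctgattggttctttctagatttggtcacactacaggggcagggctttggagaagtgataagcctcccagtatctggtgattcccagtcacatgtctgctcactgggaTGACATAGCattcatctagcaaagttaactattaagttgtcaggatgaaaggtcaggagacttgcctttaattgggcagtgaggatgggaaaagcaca
Slco1a4: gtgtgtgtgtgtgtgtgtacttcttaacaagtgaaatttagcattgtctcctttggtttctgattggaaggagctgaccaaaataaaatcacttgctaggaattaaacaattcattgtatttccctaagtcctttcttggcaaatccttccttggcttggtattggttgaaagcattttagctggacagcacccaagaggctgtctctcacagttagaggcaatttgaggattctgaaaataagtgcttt
Abcb1a: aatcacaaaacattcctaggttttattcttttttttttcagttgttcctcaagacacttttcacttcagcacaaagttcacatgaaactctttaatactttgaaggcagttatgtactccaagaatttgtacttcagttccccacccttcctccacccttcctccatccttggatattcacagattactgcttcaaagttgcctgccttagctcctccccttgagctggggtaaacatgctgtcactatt
Slco2a1: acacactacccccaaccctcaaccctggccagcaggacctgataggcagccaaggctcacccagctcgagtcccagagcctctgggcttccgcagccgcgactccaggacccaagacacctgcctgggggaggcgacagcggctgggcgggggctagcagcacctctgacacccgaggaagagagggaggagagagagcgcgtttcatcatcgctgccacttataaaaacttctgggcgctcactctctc

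Motifs were searched on both strands of windows reaching from 250 bases before to 50 after each start, and RefSeq promoters were found for 68 of the 83 genes (79 windows of 32851). The antioxidant response core, TGACNNNGC, lies in 12.4% of all windows and in 15.2% of the transporter windows, those of 10 genes. In Abcc2 it reads TGACATAGC and begins at -98 from the start, and in Abcb1a it lies just past the start, outside the stretch printed. The D-box bound by DBP (TTATGTAA or TTACGTAA) lies in 1.06% of all windows and in 2.53% of the transporter windows. These are those of 2 genes, Slc22a20 and Slc22a26, neither of which passed. The E-box of the core clock activators (CACGTG) lies in 7.15% of all windows and in 11.4% of the transporter windows, those of 9 genes. The ROR element (AANT followed by AGGTCA) lies in 0.219% of all windows and in no transporter window. None of the 6 genes that passed has a D-box, an E-box or a ROR element in this window.

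Among the 5 pumps of the canalicular or apical membrane, Abcc2 and Abcb1a rose in the Dbp-high livers. Abcc2 was 12.68 and 12.77 in the Dbp-high livers WT 1 and WT 2 and 12.67, 12.63 and 12.67 in NML-KO 1 to 3. In the Dbp-low livers it was 12.22, 12.13 and 12.09 in WT 3 to 5 and 11.82 and 12.00 in NML-KO 4 and 5. Every Dbp-high liver lay above every Dbp-low liver. The difference was 0.66 (SE 0.06, 1.58-fold, limma adjusted p = 0.000142), 0.58 within the WT and 0.74 within the NML-KO livers.

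Abcb1a encodes P-glycoprotein, which pumps drugs and other hydrophobic compounds out of cells. It was 6.78, 6.82, 6.55, 6.43 and 6.63 in the Dbp-high livers WT 1, WT 2 and NML-KO 1 to 3, and 6.04, 6.20, 6.09, 6.52 and 6.20 in the Dbp-low livers WT 3 to 5 and NML-KO 4 and 5. NML-KO 4 was the liver that made the sets overlap, lying above NML-KO 2. The difference was 0.43 (SE 0.11, 1.35-fold, limma adjusted p = 0.0285). Within WT it was 0.69 and within NML-KO 0.17, and the limma test of that gap, the interaction of genotype and set, gave -0.52 (SE 0.15, unadjusted p = 0.00781, adjusted p = 0.739). Leaving out any of WT 1 to 5 or NML-KO 5 took the adjusted p of the set difference above 0.05, to between 0.0597 and 0.0871.

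The other 3 apical pumps did not pass. Abcb1b, the close relative of Abcb1a, differed by 0.16 (SE 0.14) and Abcb4, which moves phosphatidylcholine into bile, by 0.04 (SE 0.14). Abcg2, which exports urate, porphyrins and drugs, differed by -0.03 (SE 0.22), and the sign of its difference and of that of Abcb4 changed between settings. Related genes such as Abcb1a and Abcb1b, or the Slco1a genes, may share probe sequence, which the files do not settle.

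Among the 15 organic anion transporting polypeptides, Slco1a4 rose and Slco2a1 fell in the Dbp-high livers. Slco1a4 encodes OATP1A4, a sinusoidal carrier that takes up digoxin, bile salts and steroid conjugates. It was 8.64, 9.86, 8.09, 8.87 and 8.91 in the Dbp-high livers WT 1, WT 2 and NML-KO 1 to 3, and 7.996, 8.30, 7.72, 7.89 and 7.81 in the Dbp-low livers WT 3 to 5 and NML-KO 4 and 5. WT 2 was by far the highest, and NML-KO 1 lay below the Dbp-low liver WT 4. The difference was 1.01 (SE 0.25, 2.01-fold, limma adjusted p = 0.0278), or 0.72 with an adjusted p of 0.0423 without WT 2 and 0.73 with an adjusted p of 0.0972 without WT 2 and NML-KO 4. Without WT 3, WT 5, NML-KO 2, NML-KO 3 or NML-KO 5 the adjusted p was 0.0527 to 0.0671.

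Slco2a1 encodes the prostaglandin transporter, which clears prostaglandins from the extracellular fluid. It was 9.74, 10.001, 10.04, 9.69 and 10.29 in the Dbp-high livers WT 1, WT 2 and NML-KO 1 to 3, and 10.74, 10.85, 11.02, 10.64 and 10.67 in the Dbp-low livers WT 3 to 5 and NML-KO 4 and 5. The sets did not overlap, the gap lying between NML-KO 3 and NML-KO 4. The difference was -0.82 (SE 0.12, 1.77-fold lower in Dbp-high, limma adjusted p = 0.00257), larger within WT, where it passed alone (limma adjusted p = 0.0165), than the -0.65 within NML-KO, where alone it did not pass (limma adjusted p = 0.172). The Kupffer cell list had a median difference of -0.53 and the sinusoidal endothelial list 0.12, and the part of either in the Slco2a1 difference was not tested.

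The remaining 13 polypeptides did not pass. Slco1a1 differed by 0.05 (SE 0.34) and Slco1b2, the liver carrier of bilirubin conjugates and statins, by -0.05 (SE 0.18), and the sign of both changed between settings. Slco2b1 differed by 0.15 (SE 0.09, limma adjusted p = 0.310) and Slco3a1 by -0.12 (SE 0.08, limma adjusted p = 0.348). The others, among them the testis genes Slco6c1 and Slco6d1, were dim, and Slco6b1 is a noncoding RNA in RefSeq.

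**Figure D2:**
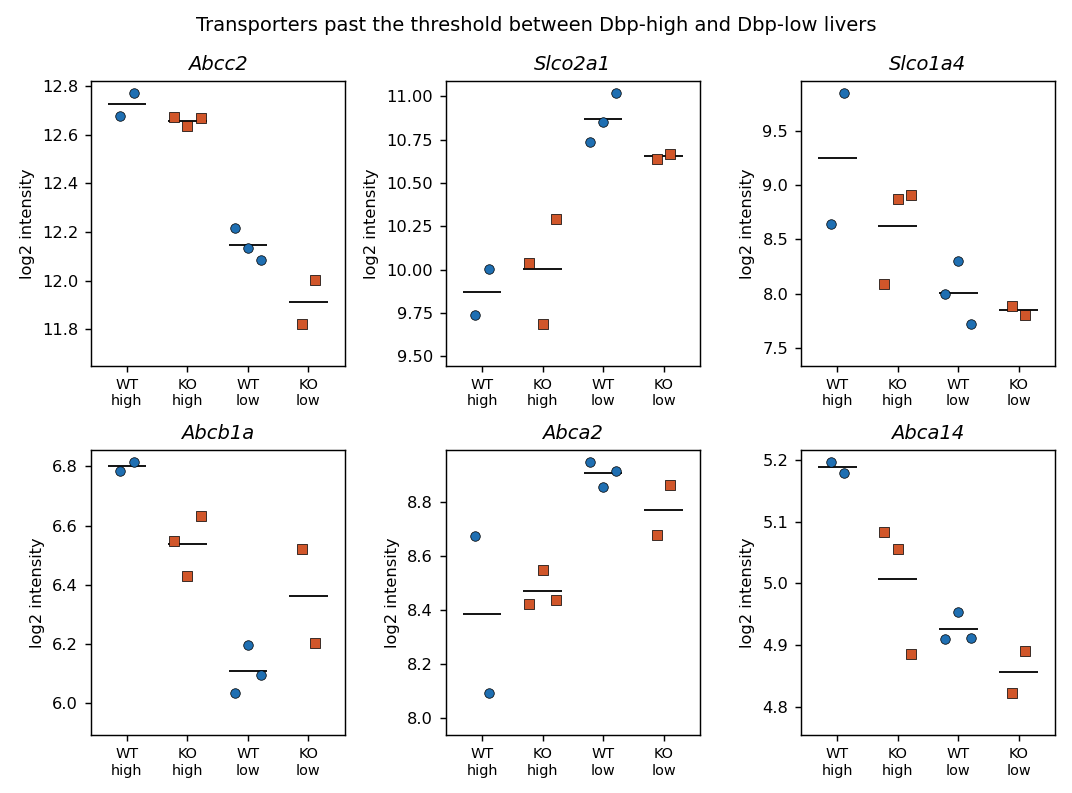
The 6 transporter genes that passed in the Dbp-high against Dbp-low comparison, with log2 intensity on the vertical axis and 1 point a liver, by genotype and Dbp set (2 or 3 livers a group); lines are group means. Dbp-high livers lie above Dbp-low livers in both genotypes for Abcc2 and below them for Slco2a1, while Abcb1a in NML-KO overlaps.

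None of the 23 Slc22a genes passed in the main fit, which used all 10 livers with genotype as a term. Of the 6 organic cation and carnitine transporters, Slc22a2, the cation carrier known from kidney, differed by 0.19 (SE 0.06, limma adjusted p = 0.0757) and Slc22a15 by -0.29 (SE 0.10, limma adjusted p = 0.0812). The carnitine carrier Slc22a5 differed by 0.08 (SE 0.11) and the ergothioneine carrier Slc22a4 by 0.03 (SE 0.12). Closest to the threshold among the 17 organic anion and other Slc22a genes was Slc22a30, a liver-expressed member of a rodent gene cluster. Its values were 10.80, 10.02, 11.34, 10.59 and 10.58 in the Dbp-high livers WT 1, WT 2 and NML-KO 1 to 3 and 11.41, 11.49, 11.24, 11.06 and 11.42 in the Dbp-low livers WT 3 to 5 and NML-KO 4 and 5. NML-KO 1 lay among the Dbp-low livers, and the difference was -0.69 (SE 0.21, limma adjusted p = 0.0573). Slc22a30 passed under 6 alternatives: with a trended and robust prior, with array weights, with dim genes left out, without the genotype term, and without NML-KO 1 (limma adjusted p = 0.0113) or NML-KO 4 (limma adjusted p = 0.0426). Slc22a2 passed under 2, without the genotype term and without NML-KO 1 (limma adjusted p = 0.0482 and 0.0357). Slc22a15 passed with array weights and without NML-KO 3, among others. The kidney carriers Slc22a6 and Slc22a8 differed by -0.09 (SE 0.06) and 0.06 (SE 0.14), and 6 kidney tubule markers had a mean level of 5.13 to 5.29 in every liver. Slc22a19 and Slc22a29 were dim and the sets did not overlap, with differences of 0.09 and 0.13 that did not pass (limma adjusted p = 0.171 and 0.130). With a trended and robust prior Slc22a19 did pass.

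The 7 other ABCC pumps and the 2 potassium channel regulators, Abcc8 and Abcc9, did not pass in the main fit either. Abcc3, which returns conjugates to the blood, differed by 0.30 (SE 0.10, limma adjusted p = 0.0767), 0.08 within WT and 0.51 within NML-KO. It passed after quantile normalization and without WT 5. NML-KO 4 and NML-KO 5 had the lowest Abcc3 of all livers, 10.38 and 10.58, against 10.79 to 11.10 in the others. Abcc4, the sinusoidal exporter of bile salts and cyclic nucleotides, differed by 0.14 (SE 0.15), and Abcc9, a subunit of potassium channels in vessels and muscle, by 0.21 (SE 0.16).

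Of the 16 ABCA genes, whose products move lipids, Abca2 fell and the dim Abca14 rose. Abca2, which acts on sterol and sphingolipid traffic in endolysosomes, was 8.67, 8.09, 8.42, 8.55 and 8.44 in the Dbp-high livers WT 1, WT 2 and NML-KO 1 to 3 and 8.95, 8.86, 8.92, 8.68 and 8.87 in the Dbp-low livers WT 3 to 5 and NML-KO 4 and 5. The sets did not overlap, though WT 1 and NML-KO 4 had nearly the same value. The difference was -0.41 (SE 0.11, 1.33-fold lower, limma adjusted p = 0.0310). After quantile normalization its adjusted p was 0.117, and without any of WT 3 to 5, NML-KO 1, NML-KO 3 or NML-KO 5 it was 0.0506 to 0.0894. Abca14 was 5.20, 5.18, 5.08, 5.06 and 4.89 in the Dbp-high and 4.91, 4.95, 4.91, 4.82 and 4.89 in the Dbp-low livers, in the same order. NML-KO 3 lay among the Dbp-low livers, and all values were below the median level of the array. The difference was 0.21 (SE 0.05, limma adjusted p = 0.0329), and it passed in only 1 of the 10 fits that left out a liver, the one without NML-KO 3.

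Abca1, which loads cholesterol onto apolipoprotein A-I, differed by 0.20 (SE 0.10, limma adjusted p = 0.254). Of the neighbouring genes Abca5, Abca6, Abca8a, Abca8b and Abca9, on chromosome 11, Abca6 differed by 0.30 (SE 0.10), Abca8a by 0.33 (SE 0.15) and Abca8b by -0.41 (SE 0.19), and none passed in the main fit. Abca6 passed after quantile normalization and with array weights, and Abca8a with array weights. Abcg1, which exports cholesterol to high-density lipoprotein, differed by 0.16 (SE 0.09, limma adjusted p = 0.303).

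Of the ABC proteins in organelles, Abcd2 had the largest difference of all 83 genes, and it did not pass. It was 7.41, 8.82, 7.19, 6.48 and 6.73 in the Dbp-high livers WT 1, WT 2 and NML-KO 1 to 3 and 5.90, 6.50, 6.17, 7.37 and 5.54 in the Dbp-low livers WT 3 to 5 and NML-KO 4 and 5. WT 2 was the highest and NML-KO 4 stood with the Dbp-high livers (difference 1.14, SE 0.45, limma adjusted p = 0.134). Leaving out 1 liver at a time gave differences from 0.68 without WT 2 (limma adjusted p = 0.285) to 1.67 without NML-KO 4 (limma adjusted p = 0.0101). The 5 ABCB genes outside the apical membrane had differences from 0.01 to 0.29, among them the porphyrin-linked Abcb6 at 0.19 (SE 0.07) and the mitochondrial Abcb8 at 0.29 (SE 0.11) and Abcb10 at 0.13 (SE 0.08), none past the threshold in the main fit. Abcb6 passed without WT 2 and Abcb8 without NML-KO 4. Abcd3, the abundant peroxisomal membrane protein, differed by 0.13 (SE 0.21).

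**Figure D3:**
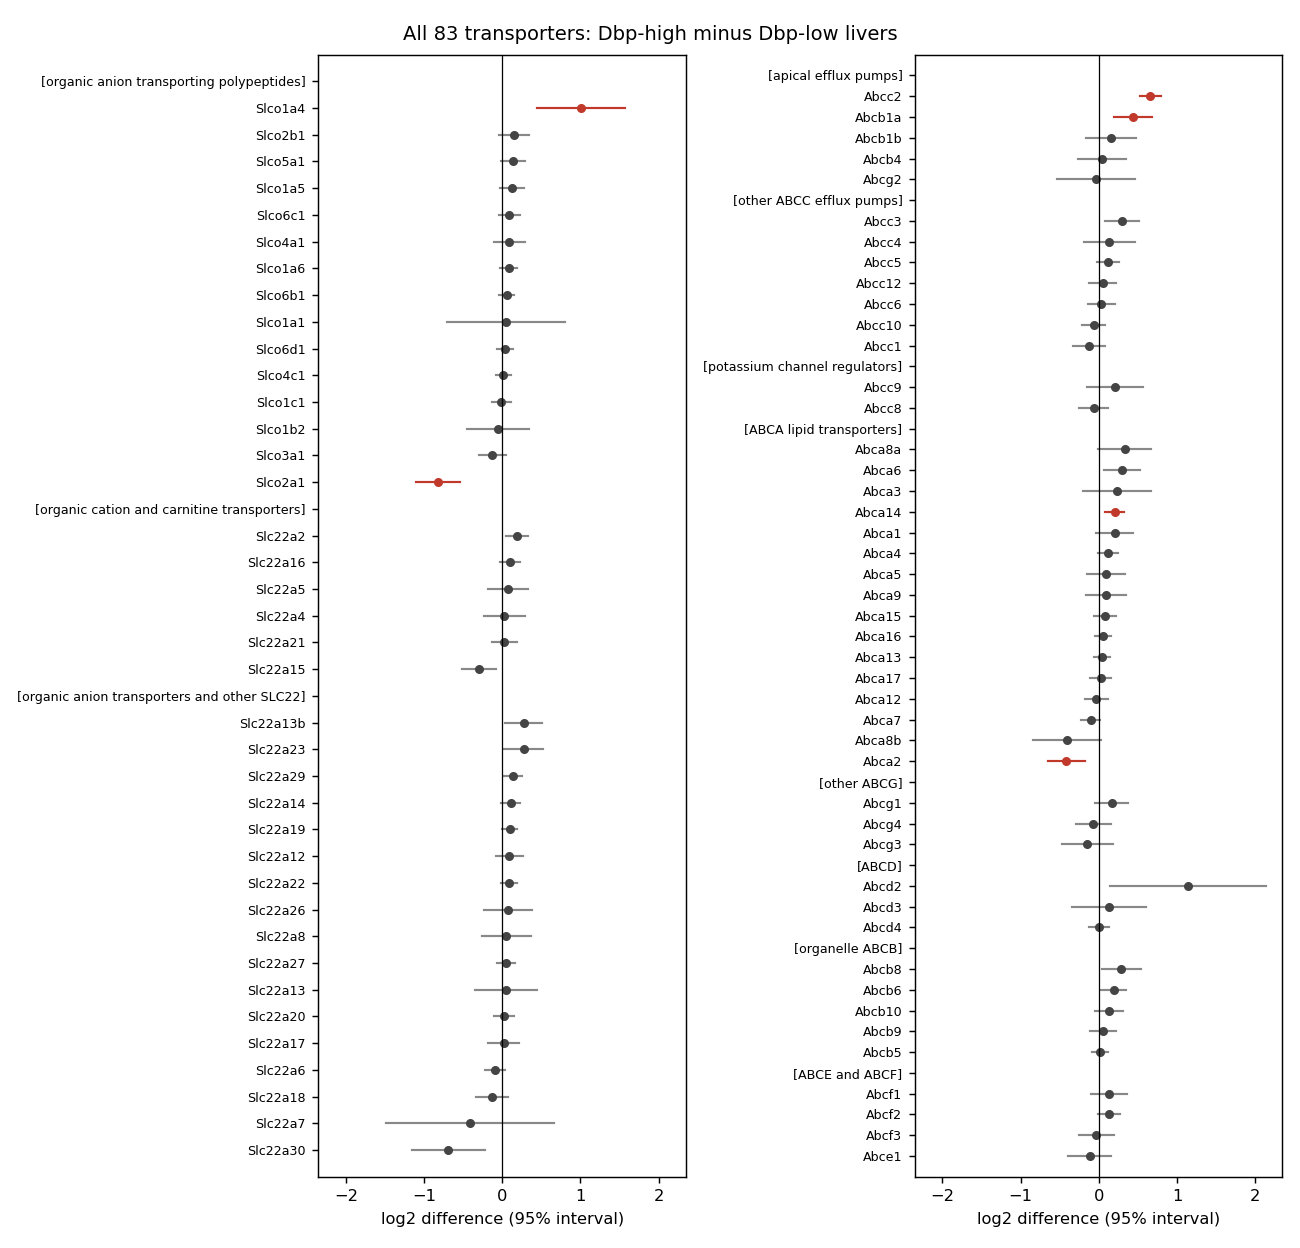
All 83 transporter genes, grouped by role, with the log2 difference Dbp-high minus Dbp-low, genotype in the model, on the horizontal axis (5 livers a set). Points are differences and bars 95% intervals from the limma fit; red marks the 6 genes past an adjusted p of 0.05, of which 4 lie above 0 and 2 below.

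Abcc2 passed an adjusted p of 0.05 under every processing alternative tried and within each genotype alone, with differences of 0.58 to 0.74, and it was the only one of the 83 to do so. Within the WT livers 4 transporter genes passed (Abca3, Abcb1a, Abcc2 and Slco2a1), against 6.13% of all genes, and within the NML-KO livers 1 did, against 1.28%. From 6 over all 10 livers, the count went to 2 without WT 3 (10.3% of all genes) or without NML-KO 5 (8.15%) and to 3 without WT 4 (9.26%) or without WT 5 (9.79%), so that fewer genes of any kind passed in these fits than the 12.9% over all livers. Without WT 2 and NML-KO 4, a choice made after seeing the data, 7 passed (Abca2, Abcb1a, Abcb8, Abcc2, Abcd2, Slc22a15 and Slco2a1), against 8.84% of all genes.

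No interaction of genotype and Dbp set passed for any of the 83, as for no gene at all (0%). At an unadjusted limma p below 0.05 there were 9 of the 83, against 6.49% of all genes. The set difference ran in opposite directions by genotype for Abcd3 (-0.36 in WT and 0.62 in NML-KO), Slco1b2 (-0.43 and 0.33) and Abcg2 (-0.46 and 0.40), with limma adjusted p-values of 0.739, 0.742 and 0.765. Among the 9 it also did for Abcb10 (-0.02 and 0.28) and, the reverse way, Slc22a26 (0.35 and -0.21), both with a limma adjusted p of 0.765. WT 2 is the lowest Dbp-high WT liver and NML-KO 4 the lowest Dbp-low NML-KO liver for Abcd3, Slco1b2 and Abcg2. Both livers were chosen after their transporter values were seen, and without them the Dbp-high WT and the Dbp-low NML-KO livers number 1 each, a lone sample that limma takes to vary like the others. The interaction went from 0.97 to 0.40 for Abcd3, from 0.76 to 0.25 for Slco1b2 and from 0.87 to 0.22 for Abcg2, values from which nothing is read, given that choice.

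The most conspicuous variation among the carriers lay in those 2 livers, 1 of each genotype. Slc22a7 was 6.43 in WT 2 against 8.75 to 8.93 in the other WT livers, 5.29-fold below their mean, and 7.18 in NML-KO 4 against 8.13 to 8.47 in the other NML-KO livers, 2.21-fold below. Slco1a1 was 9.83 in WT 2 against 11.09 to 11.41, 2.63-fold below, and 10.30 in NML-KO 4 against 11.21 to 11.60, 2.11-fold below. In both genotypes the liver that stood apart lay outside the range of all others.

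Slco1b2, Abcg2, Abcd3, Abcb4 and Slc22a4 were also lowest in both livers. Slco1b2 was 10.11 in WT 2 and 10.09 in NML-KO 4, against 10.47 to 10.91 in the other livers. Abcg2 was 7.94 and 7.98, against 8.43 to 9.13, and Abcd3 was 11.11 and 10.95, against 11.60 to 12.12. In all, 7 of the 83 (8.43%) were lowest of their genotype in both livers, against 5.22% of all genes. Of the uptake carriers of the hepatocyte, Slc22a7, Slco1a1 and Slco1b2 are among the 7, while Slco1a4, Slco2b1 and Slc22a5 are not. From the mean of the other livers of the genotype, Slco1a4 lay 1.69 in WT 2 and -0.53 in NML-KO 4. Slco2b1 lay 0.03 and -0.03, and Slc22a5 -0.01 and -0.07.

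Another 7 (8.43%), against 5.14% of all genes, were highest of their genotype in both: Abcd2, Abcc4, Abcg1, Abcg3, Abcc1, Slc22a26 and Slco3a1. Abcc4 was 7.22 in WT 2 and 6.80 in NML-KO 4, against 6.42 to 6.61 in the other livers. Abcd2 was 8.82 in WT 2 against 5.90 to 7.41 in the other WT livers, and 7.37 in NML-KO 4 against 5.54 to 7.19 in the other NML-KO livers. Transporter genes 1.5-fold or more from the mean of the other livers of the genotype numbered 10 in WT 2 (12.0%, against 5.39% of all genes) and 9 in NML-KO 4 (10.8%, against 5.26%). In the other 8 livers they numbered 2 to 4. These counts take in the Dbp split, since 3 of the 4 other WT livers are Dbp-low and 3 of the 4 other NML-KO livers Dbp-high: Slco2a1, Abca2 and Slco1a4 are among the 10 and Abcc2, 1.59-fold lower, among the 9. A second rule, a gap above 0.71 of the group's range, takes no account of fold size. By it WT 2 was apart for 6 genes, 4 low (4.82%, against 0.953% of all genes) and 2 high (2.41%, against 1.67%). WT 1 was apart for 4, 1 low (1.2%, against 1.25%) and 3 high (3.61%, against 2.37%). NML-KO 2 was apart for 2, both high (2.41%, against 1.67%). WT 4 and WT 5 had 1 high gene each (1.2%, against 0.306% and 0.135%). NML-KO 4 had 1 low gene, Slc22a7 (1.2%, against 0.376%).

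The 2 livers differed from the rest in other genes, and not in the same way. In WT 2 the fat markers (5 of 6 measured) had a list mean of 7.94, against 6.84 to 7.15 in the other 9 livers. Plin1 was 7.52 against 5.38 to 5.81, Retn 7.42 against 5.35 to 6.03 and Adipoq 5.63 against 4.54 to 4.72. The rise lay in these genes: the mean of the other measured fat markers in WT 2 lay within the range of the other 9 livers. In NML-KO 4 the acute phase genes were highest, with Saa2 at 13.03 against 5.33 to 11.05 and Lcn2 at 12.77 against 6.35 to 8.89, while WT 2 had 6.58 for both. The Kupffer cell list mean was 8.76 in NML-KO 4 and 8.33 in WT 2, against 7.47 to 8.46 in the others. The part of these in the carrier levels was not tested.

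**Figure D4:**
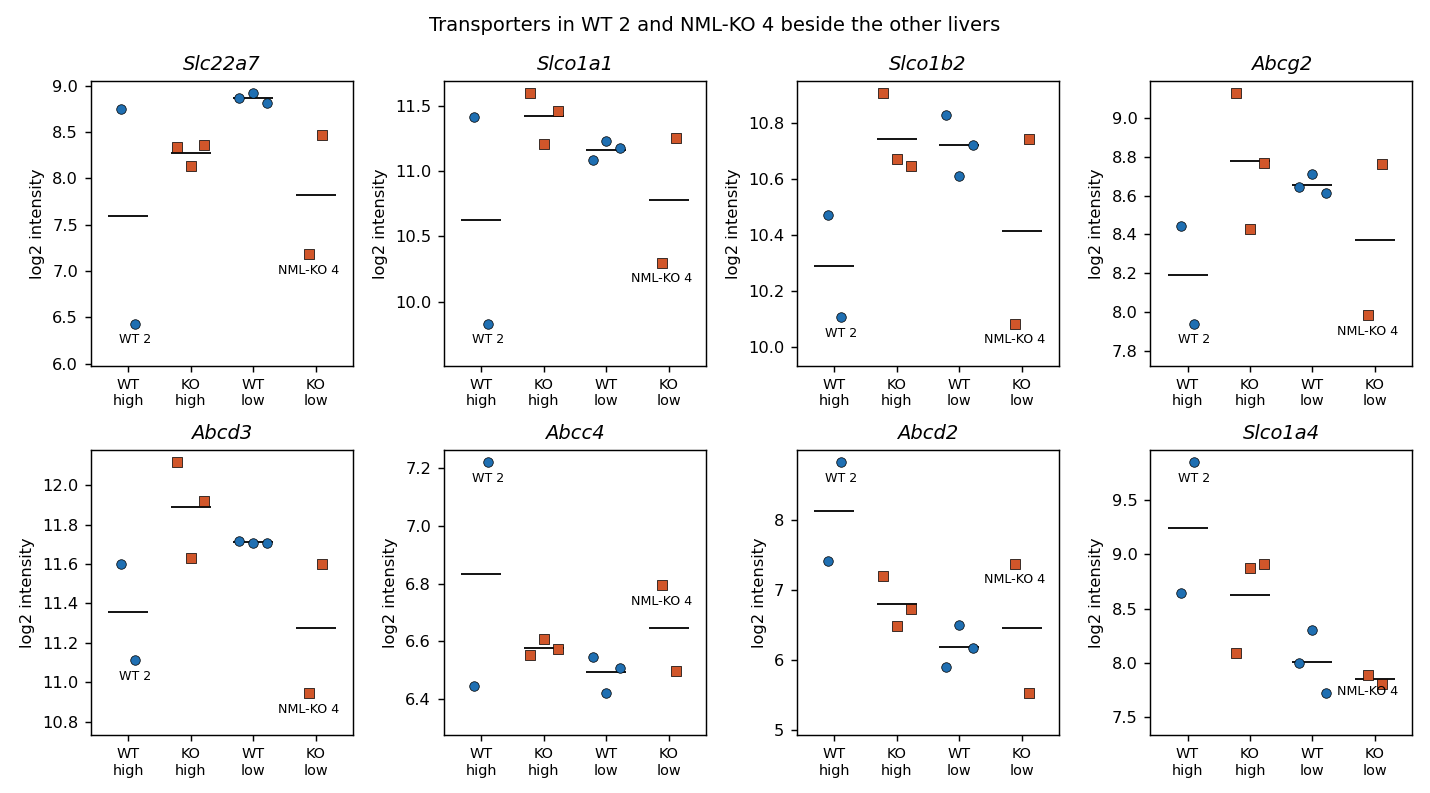
Log2 intensity of Slc22a7, Slco1a1, Slco1b2, Abcg2, Abcd3, Abcc4, Abcd2 and Slco1a4, 1 point a liver by genotype and Dbp set (high or low), with WT 2 and NML-KO 4 labelled and lines at group means. These livers are the lowest of their genotype for the first 5 genes, with Slc22a7 at 6.43 and 7.18, and the highest for Abcc4 and Abcd2.

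Without these 2 livers, a choice made after seeing the data and on these very genes, no transporter gene differed between genotypes at an adjusted p below 0.05. Slc22a7 was then 8.84 ± 0.08 in WT (SD, n = 4) and 8.33 ± 0.14 in NML-KO (SD, n = 4), with no overlap (difference -0.51, SE 0.08, 1.43-fold lower, limma adjusted p = 0.787). Abcf2 was the other gene without overlap among the 8 livers, 8.04 ± 0.13 against 8.24 ± 0.03 (SD, n = 4 each, limma adjusted p = 0.787). That makes 2 of the 83 (2.41%), against 2.59% of all genes.

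Of the proteins that work with the transporters, 5 of 21 partners and other carriers of these membranes passed between the Dbp sets (23.8%, against 12.9% of all genes), 2 higher and 3 lower. The bile acid carrier relative Slc10a5 rose by 0.61 (SE 0.07, limma adjusted p = 0.000771), and the scaffold Slc9a3r2, which anchors membrane transporters, fell by 0.62 (SE 0.10, limma adjusted p = 0.00429). Slc10a5 was 9.69 and 9.83 in WT 1 and WT 2 and 10.09 to 10.15 in NML-KO 1 to 3, against 9.09 to 9.49 in the Dbp-low livers. Between genotypes 0 of the 21 passed, and 2 (9.52%, against 2.7% of all genes) had an unadjusted limma p below 0.05: Tmem30a, a subunit of phospholipid flippases, at 0.24 (SE 0.08) and the motor Myo5b, which carries canalicular cargo, at -0.15 (SE 0.06). Of the 3 ABC genes left out, 0 passed between the sets, with Abcg5 at 1.32 (SE 0.38, limma adjusted p = 0.0515) and Abcb11 at -0.22 (SE 0.11).

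Of the receptors and factors that control transporter genes, 16 of 18 were measured and 5 passed between the sets (31.2%, against 12.9% of all genes), 1 higher and 4 lower. The fatty acid receptor Ppara rose by 0.93 (SE 0.09, limma adjusted p = 0.000232), while the growth hormone signal transducer Stat5b fell by 0.41 (SE 0.05, limma adjusted p = 0.00129) and the sterol factor Srebf2 by 0.57 (SE 0.07, limma adjusted p = 0.00123). Of the clock output factors, 13 of the 16 measured were past the threshold (81.2%, against 12.9% of all genes), 9 higher and 4 lower; the count includes Dbp, whose values made the sets, and is a description of the split with nothing read from it. The clock activator Arntl was among the 4, at -2.39 (SE 0.07). None of these receptors, factors and clock genes passed between genotypes, and none had an unadjusted limma p below 0.05. With the Dbp set in the model, 4 of the 16 receptors and factors did (25.0%, against 4.36% of all genes), Stat5b at -0.20 and Srebf2 at -0.24 among them, and none passed after adjustment (limma adjusted p = 0.992).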

How the data were processed

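RNA of 10 mouse livers was read on Affymetrix whole-transcript arrays. The deposited table holds linear intensities of 28815 probe sets, from 18.4 to 29834, already processed by the authors. No source used here says how background and arrays were adjusted; the submitters' processing notes name build mm8. Gene names came from the platform annotation, updated through Entrez numbers to RefSeq: 21780 probe sets name 1 gene, 1605 name several and 5430 name none. Intensities were turned to log2, and the probe set with the highest mean stood for a gene. limma 3.58.1 in R 4.3.3 (lmFit and eBayes) was fitted to all 19935 genes: genotype alone, genotype with Dbp set (log2 Dbp above 8), and their interaction. p-values were adjusted by Benjamini-Hochberg over all genes, with a threshold of 0.05. The scripts were tested on simulated data. Genes named are those past the threshold, the 4 in each direction with the smallest unadjusted genotype p, the 4 with the smallest interaction p, the first of each role and the first 2 of each list by p, and known hepatocyte carriers; others, such as the genes extreme in WT 2 and NML-KO 4, were named after their values were seen. The members, lists and Dbp split were chosen with earlier results of these data known. The number of arrays limits the precision. The labels do not say whether the replicate numbers in the titles pair livers, and the fits above did not pair them.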

Additional observations from a re-analysis of the deposited data

Results flagged for a closer look

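In groups of 5 livers, a liver counted as apart when its gap to the nearest other liver was more than 0.71 of the group's range; chance gives this in about 1 in 20 groups, and 13.5% of all genes had such a liver in either genotype. Of the 83 transporter genes 14 did. WT 2 was low for Slc22a7 (log2 6.43), Slco1a1 (9.83), Abcd3 (11.11) and the kidney carrier Slc22a6 (5.16), and high for Abcc4 (7.22) and Abca8a (9.6). NML-KO 4 was low for Slc22a7 (7.18). WT 1 was high for Abcc6 (10.22), Abcd4 (7.16), a lysosomal cobalamin transporter, and Abcf1 (8.18), and low for Slco3a1 (7.02). Single high values were those of Abcb4 in WT 5 (10.63), Abcc10 in WT 4 (7.31), and those of the dim Abca4 (5.31) and of the urate carrier Slc22a12 (6.87) in NML-KO 2.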

How the results depend on the processing

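Between genotypes 0 of the 83 passed in any alternative run, the fit with the replicate number as a replicate block included (0 called). The labels do not say whether the numbers pair livers, and this was not tested. Same-numbered livers' deviations from their genotype mean correlated at 0.44, 0.26, -0.42, 0.35 and 0.54. The negative value is that of WT 3 and NML-KO 3, which lie in different Dbp sets. The median genotype difference stayed between -0.0119 and 0.0182 when 1 liver was left out and was -0.0226 within the Dbp-low livers. Rrp8 lay between -0.96 and -0.82 with 1 liver left out, its limma adjusted p being 0.0171 without NML-KO 4. Between Dbp sets, 11 passed with array weights (15.8% of all genes), 1 within NML-KO (1.28%), 2 at an adjusted p below 0.01, 1 with a size of at least 1 (0.983%), and 2 to 8 with 1 liver left out (8.15% to 12.8%), against 6 (12.9%) over all livers. The median set difference was 0.0586 after quantile normalization, 0.0792 after median centring, 0.0931 without dim genes, 0.0497 after an offset of 16, 0.0818 without the genotype term, 0.0775 within WT, 0.0636 without WT 2 and NML-KO 4 (chosen after seeing the data), and 0.0569 to 0.0885 with 1 liver left out. For the interaction 9 passed at an unadjusted limma p below 0.05 and 0 after adjustment.

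Reversals befell only differences that had not passed, and the cause was not tested. Within the Dbp-low livers the genotype difference was -0.0344 for Abcc8 and 0.0043 for Abcd4. For the Dbp sets, quantile normalization gave 0.0311 for Abcg2 and 0.0699 for Slco1b2, array weights -0.0322 for Slco1a1, and no genotype term 0.000897 for Abcg2. Within WT, Abcb4 was -0.15 and Slco1a1 -0.54. Within NML-KO, Abcc4 was -0.0693, Abcc6 -0.0564, Abcg2 0.40, Slc22a7 0.45 and Slco1b2 0.33. With 1 liver left out the ranges were -0.0623 to 0.113 for Abcb4, -0.0605 to 0.241 for Abcc4, -0.0426 to 0.0944 for Abcc6, -0.28 to 0.17 for Abcg2, -0.86 to 0.23 for Slc22a7, -0.27 to 0.49 for Slco1a1 and -0.27 to 0.11 for Slco1b2. Without WT 2 and NML-KO 4, Abcb4 was -0.0254.

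Signal limits the dim genes: 37 of the 83 lay below the median level of all genes, where differences are compressed. The Dbp sets rest on 5 livers each and on a split found in the data.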
